A study of Homo sapiens with 2 samples.

Results

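The 10 genes described here are JCHAIN, MZB1, XBP1, PRDM1, SSR4, SEC61B, SEC61A1, SEC11C, SPCS1 and SPCS2, which serve the plasma cell programme and the entry of proteins into the endoplasmic reticulum (ER). They were picked out by a list of gene symbols, drawn up with earlier results of these data known, and all 10 had reads in both libraries, out of 16645 annotated genes with a read in either. They comprised 234 of the 237608 transcript models listed. The cells were GM12878, a human B-lymphoblastoid line transformed with Epstein-Barr virus, and both libraries, replicates 1 and 2, belong to this 1 untreated group. The assay was direct RNA sequencing on the Oxford Nanopore platform: each native strand passes a pore from its 3′ end, without PCR. The labels do not say whether the replicates came from separate cultures, so every p-value measures only the difference between these 2 libraries, which may be technical.

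A B cell that becomes a plasma cell turns into a secretory cell. PRDM1 (BLIMP1) is a repressor that ends the B cell programme, and XBP1 is the transcription factor that expands the ER. Nascent antibody chains are threaded into the ER through the SEC61 channel, helped by the translocon-associated (TRAP) complex to which SSR4 belongs. The signal peptidase complex of SEC11A or SEC11C with SPCS1, SPCS2 and SPCS3 then removes their signal peptides. MZB1 is a co-chaperone of the ER that assists the folding of immunoglobulin, and JCHAIN is the peptide that joins IgM and IgA into polymers.

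XBP1 is controlled by an RNA processing step unlike ordinary splicing. The ER stress sensor IRE1 (ERN1) cuts a short stretch out of the mRNA, which shifts the reading frame and gives the active, longer protein. In GENCODE 29 this stretch is annotated as 26 bases (chr22:28796122-28796147, minus strand, GRCh38). It lies in coding exon sequence of XBP1-201 and is an intron of XBP1-202 and XBP1-207. The stretch is shown because it decides which XBP1 protein is made. Capitals mark the 26 bases as annotated within chr22:28796086-28796183, and the second line is the same region after their removal. The letters gcagca stand both directly before the capitals and at their end. A stretch of 26 bases that begins within the first gcagca therefore leaves the same second line. The annotated ends thus need not be the sites of cutting.
XBP1-201: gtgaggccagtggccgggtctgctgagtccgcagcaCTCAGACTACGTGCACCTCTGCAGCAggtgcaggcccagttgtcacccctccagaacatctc
XBP1-202: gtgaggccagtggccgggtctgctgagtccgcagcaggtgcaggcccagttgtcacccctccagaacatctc

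The known models with XBP1 reads were XBP1-201, XBP1-206, XBP1-203 and XBP1-204, and none of these has the 26-base intron. A count per model does not show whether a strand assigned to XBP1-201 lacked the 26 bases, so the level of the processed form was not analysed here.

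SEC61A1, JCHAIN and XBP1 had most of their reads, in at least 1 library, in models of a single exon. Their last exon junctions are shown because a read that ends before them holds 1 exon only. Capitals mark the first bases of the last exon, and coding sequence lies on both sides in each case. The last exons span 2207 bases in SEC61A1-201 (chr3:128069476-128071682, plus strand), 999 bases in JCHAIN-201 (chr4:70655541-70656539, minus strand) and 1178 bases in XBP1-201 (chr22:28794555-28795732, minus strand).
SEC61A1-201: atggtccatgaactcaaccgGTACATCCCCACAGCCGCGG
JCHAIN-201: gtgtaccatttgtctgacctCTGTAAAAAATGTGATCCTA
XBP1-201: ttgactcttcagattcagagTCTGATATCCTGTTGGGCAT

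Promoter windows from RefSeq (build GRCh38.p14, 250 bases before to 50 after a gene start) were found for 9 of the 10 genes, 13 windows in all. They were searched on both strands for the ER stress response element, CCAAT and CCACG with 9 bases of any kind between them, and for the core of the unfolded protein response element, TGACGTGG, whose reverse complement shares the letters CCACG with the former. The first motif occurred in 27 of 35116 windows (0.0769%), and of the 13 windows only in that of XBP1, at bases -52 to -34 from the start. The second occurred in 256 windows (0.729%), and of the 13 only in 1 of SSR4, as its reverse complement, at bases -129 to -122. Both are shown with the motif in capitals, XBP1 at chr22:28800583-28800641 (minus strand) and SSR4 at chrX:153794519-153794566 (plus strand). A match of letters describes the window and is not a site of binding.
XBP1: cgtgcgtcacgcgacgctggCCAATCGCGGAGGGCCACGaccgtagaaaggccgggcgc
SSR4: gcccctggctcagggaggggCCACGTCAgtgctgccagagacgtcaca

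Replicate 1 held 1360368 reads and replicate 2 held 1510998. The 10 genes together took 2777 reads (0.204%) and 2624 reads (0.174%). Levels are in CPM, reads per 1000000 reads of the library. A direct RNA read is 1 RNA strand whatever its length, so levels are compared per strand and are not divided by gene length. Of 16645 genes, 94.4% or more lay below the mean level of each of 8 of the 10 genes, the exceptions being SPCS2 (85.5%) and PRDM1 (32.6%).

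The regulators of the programme differed widely in level. PRDM1 (chromosome 6, 106086320 to 106109939) had 4 reads in replicate 1 and 3 reads in replicate 2, or 2.94 and 1.99 CPM. Even a gene listed at 0 may hold up to 3 reads (2.21 and 1.99 CPM), so PRDM1 was near the detection limit, and none of these reads lay in a known model. XBP1 (chromosome 22, 28794555 to 28800597) had 202 and 227 reads, or 148 and 150 CPM, a mean of 149 CPM ± 1.23 (SD, n = 2). The values of XBP1 lay close together, and the log2 ratio of replicate 2 to replicate 1 was 0.02 (95% exact interval -0.26 to 0.30).

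Of the genes that act on antibody itself, MZB1 (chromosome 5, 139387480 to 139390081) had 306 and 311 reads, or 225 and 206 CPM, a mean of 215 CPM ± 13.5 (SD, n = 2). JCHAIN (chromosome 4, 70655541 to 70681817) had 272 reads in replicate 1 and 192 in replicate 2, or 199.9 and 127 CPM, a mean of 164 CPM ± 51.5 (SD, n = 2). JCHAIN was thus well below MZB1 in replicate 2, while in replicate 1 the gap was small. JCHAIN was lower in replicate 2 by the largest margin of the 9 genes tested, with a log2 ratio of -0.65 (interval -0.93 to -0.38).

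Counted over all models, SSR4, SEC61B and SEC61A1, the genes of the translocon, had the highest mean levels of the 10. SSR4 (chromosome X, 153793516 to 153798505), the delta subunit of TRAP, had 599 and 547 reads, or 440.3 and 362 CPM, a mean of 401 CPM ± 55.4 (SD, n = 2). SEC61B (chromosome 9, 99222064 to 99230615), the small beta subunit of the channel, had 405 and 409 reads, or 298 and 271 CPM, a mean of 284 CPM ± 19.1 (SD, n = 2). SEC61A1 (chromosome 3, 128051641 to 128071683), which encodes the channel itself, had 349 and 321 reads, or 257 and 212 CPM, a mean of 234 CPM ± 31.2 (SD, n = 2). SSR4 lay above SEC61B and SEC61B above SEC61A1 in each library, with no overlap between neighbours. The place of SEC61A1 depended on the models counted: per 1000000 known reads its mean was 79.9, below MZB1 (352), SEC11C (294), SPCS1 (277), XBP1 (134) and JCHAIN (128). Per 1000000 reads of models with 2 or more exons it was 103. Per strand, SEC61B stood to SEC61A1 as 1.16 in replicate 1 and 1.27 in replicate 2.

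The signal peptidase genes SPCS1 and SEC11C lay near each other, and SPCS2 was lower. SPCS1 (chromosome 3, 52704955 to 52711146), a small non-catalytic subunit, had 276 and 275 reads, or 203 and 182 CPM, a mean of 192 CPM ± 14.8 (SD, n = 2). SEC11C (chromosome 18, 59139477 to 59158836), a catalytic subunit, had 282 and 249 reads, or 207 and 165 CPM, a mean of 186 CPM ± 30.1 (SD, n = 2). SPCS2 (chromosome 11, 74949247 to 74979031), another non-catalytic subunit, had 82 and 90 reads, or 60.3 and 59.6 CPM, a mean of 59.9 CPM ± 0.505 (SD, n = 2). SPCS1 exceeded SPCS2 by a ratio of 3.37 in replicate 1 and 3.06 in replicate 2, although both belong to the same complex. In known models only, the means were 277 and 18.9 CPM, and in models of 2 or more exons 230 and 48.2 CPM, so the size of this gap depended on the models counted. Annotated pseudogenes took few reads, 11 and 21 for SPCS2P4 and 7 and 6 for SSR4P1, but reads of such copies may be exchanged with the parent gene.

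In the order of mean level, SSR4, SEC61B, SEC61A1, MZB1, SPCS1, SEC11C, JCHAIN, XBP1, SPCS2 and PRDM1, not all neighbours were separated. The library values overlapped between SEC61A1 and MZB1, between SPCS1 and SEC11C, between SEC11C and JCHAIN, and between JCHAIN and XBP1. This order is that of all models together.

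**Figure D1:**
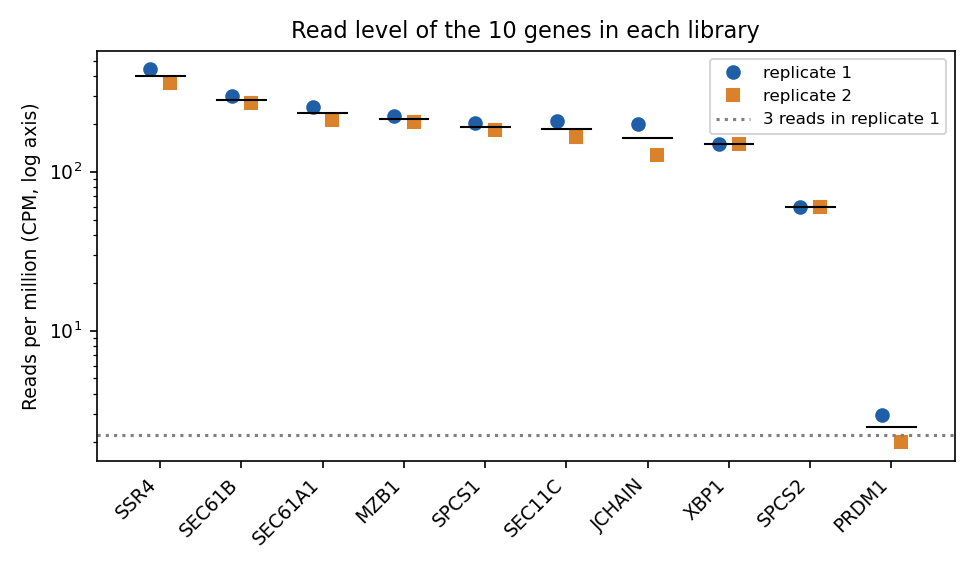
Level of each of the 10 genes in CPM (log axis), with 1 point per library, a horizontal bar at the mean and a dotted line at 3 reads in replicate 1. The other 9 genes lie between 59.6 and 440.3 CPM, and PRDM1 lies at 2.94 and 1.99 CPM, beside the line.

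The split of each gene's reads between the libraries was compared with that of all reads by an exact binomial test (two-sided), over 10634 genes with at least 10 reads and with Benjamini-Hochberg adjustment. Of all these genes 5.05% had an adjusted p under 0.05, of which replicate 2 was higher in 2.72% and lower in 2.33%. Of the 9 genes tested here, 2 passed, both lower in replicate 2. A test has more power at higher counts, and the 10 genes had a median of 189 CPM, against 8.23 CPM over all annotated genes. With a minimum of 50 reads 9.62% of all genes passed, and again 2 of these 9. JCHAIN passed with an adjusted p of 0.000108, and under all 8 settings of scaling, model choice and read minimum, its log2 ratio lying between -1.01 and -0.63. SSR4 passed with a log2 ratio of -0.28 (interval -0.45 to -0.11, adjusted p of 0.0255 in the exact binomial test). With DESeq2 size factors it did not (adjusted p of 0.0504), nor with genomic models left out (0.116), among models of 2 or more exons (0.231) or in known models only (0.615).

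The other 7 genes did not pass. SEC11C had a log2 ratio of -0.33 (interval -0.58 to -0.08) and an adjusted p of 0.118 in the exact binomial test, and SEC61A1 one of -0.27 (-0.50 to -0.05) with 0.159. For MZB1 the interval was -0.36 to 0.10, for SEC61B -0.34 to 0.06, for SPCS1 -0.40 to 0.09 and for SPCS2 -0.47 to 0.43. PRDM1 had too few reads to be tested. Of the 9 ratios 8 were below 0, with a median of -0.16, against 48.9% of all genes tested and a median of 0.01.

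How the reads matched annotated splicing is shown by the category of the model to which a read was assigned. The category does not give how much of an RNA was read, since some known models are short, such as SEC11C-206 (462 bases) and SSR4-205 (427 bases). A known model has every splice junction of an annotated transcript. A model called ISM (incomplete splice match) has only a run of them, and its suffix subtype keeps the 3′ end. NIC models join annotated splice sites in an unannotated way, NNC models have an unannotated splice site, and genomic models overlap a gene without matching its splicing. Lengths are those of the models, not of the reads.

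SSR4, MZB1, SEC11C, SPCS1 and SEC61B were mostly matched to known models. In SSR4, known models held 542 of 599 reads (90.5%, 95% Wilson interval 87.9 to 92.6%) and 467 of 547 reads (85.4%, 82.2 to 88.1%). In MZB1 the known share was 87.3% and 78.5%, in SEC11C 82.3% and 78.7%, in SPCS1 83.3% and 63.3%, and in SEC61B 78.5% and 71.9%. In these 5 genes known models held most reads of both libraries. Of the rest of the SEC61B reads, ISM suffix models took 67 and 92, the largest suffix share of the gene set in replicate 2 (22.5%).

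The other 4 genes with enough reads were known to less than 55% in each library. In SEC61A1 known models held 104 of 349 reads in replicate 1 (29.8%, 25.2 to 34.8%) and 16 of 321 in replicate 2 (4.98%, 3.09 to 7.94%). XBP1 had known shares of 54.0% (47.1 to 60.7%) and 37.9% (31.8 to 44.3%), and JCHAIN of 46.7% (40.8 to 52.6%) and 32.3% (26.1 to 39.2%). SPCS2 was lowest in replicate 1, with 20 of 82 reads (24.4%) and 8 of 90 reads (8.89%). Over the 10 genes together known models held 70.2% and 59.0% of reads, against 56.5% and 46.4% over all annotated genes. Between genes the known share ranged from 4.98% to 85.4% in replicate 2 alone, leaving out PRDM1.

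**Figure D2:**
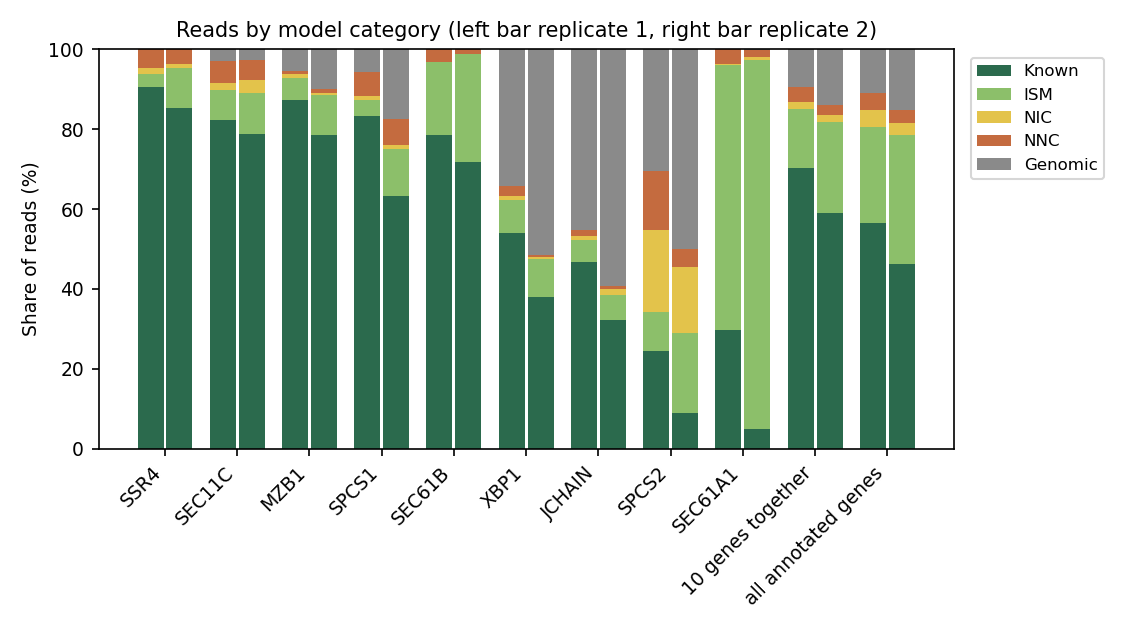
Share of reads (%) by model category for the 9 genes with at least 20 reads in each library, for the 10 genes together and for all annotated genes, with replicate 1 on the left and replicate 2 on the right of each pair. The known share is 90.5% and 85.4% in SSR4 and 29.8% and 4.98% in SEC61A1, where ISM models fill the rest, while genomic models hold most of the rest in JCHAIN and XBP1, and several categories share it in SPCS2.

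The known share was compared between the libraries with a two-sided Fisher's exact test per gene over 6340 genes with at least 20 reads in each library. It was lower in replicate 2 in 26.9% of all genes tested and higher in 0.268% (adjusted p under 0.05). Of the 9 genes tested here 7 passed, all lower in replicate 2, which left out SEC61B (adjusted p of 0.0903, Fisher's exact test) and SEC11C (0.546). Among genes with at least 50 reads in each library 45.6% passed, and again 7 of these 9. The largest decrease was in SEC61A1, by 24.8 percentage points (adjusted p of 2.08e-16, Fisher's exact test), followed by SPCS1, by 20.1 points (1.92e-06), and XBP1, by 16.1 points (0.00605). The median decrease was 14.4 points in the 9 genes and 8.62 points over all genes tested. These decreases start from unlike levels, as the median known share was 78.5% and 63.3% in the 9 genes and 32.5% and 17.5% over all genes tested. The points alone therefore do not show a greater loss in the 9 genes. Without genomic models 3 of the 9 passed, against 26.0% of 4940 genes. Of those no longer past the threshold, the difference was -3.77 points in XBP1, -5.75 in JCHAIN and -5.24 in MZB1, while in SPCS2 it was -17.3 points against -15.5 with them.

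Single-exon models were prominent where the known share was low. In SEC61A1 the most abundant model in both libraries was ENCODEHT000475636, an ISM model with 1 exon of 2208 bases, with 197 reads (56.4% of the gene) and 254 reads (79.1%). Its length is that of the last exon of SEC61A1-205 and differs by a single base from the last exon of SEC61A1-201, whose first bases are printed above. The full 12-exon model SEC61A1-201, of 3635 bases, received 102 reads in replicate 1 and 13 in replicate 2. Known models of SEC61A1 stood at 76.4 and 10.6 CPM, while single-exon models stood at 145 and 169 CPM. Counted in known models alone, against the known reads of each library, SEC61A1 had a log2 ratio of -2.53 (exact binomial test, adjusted p of 1.27e-13), where the median of all genes was -0.26.

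JCHAIN reads were likewise divided between a multi-exon and a single-exon model. The 4-exon coding model JCHAIN-201, of 1438 bases, had 126 reads in replicate 1 and 62 in replicate 2. The single-exon genomic model ENCODEHT000283360, of 780 bases against 999 in the last exon of JCHAIN-201, had 123 and 110 reads. The first was on top in replicate 1 and the second in replicate 2. In CPM, known JCHAIN models stood at 93.4 and 41.0, and genomic ones at 90.4 and 75.4, so both were lower in replicate 2.

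In XBP1 the known models were lower and the genomic ones higher in replicate 2. XBP1-201, with 5 exons and 1850 bases, had 102 and 72 reads. The single-exon genomic model ENCODEHT000301442, of 960 bases against 1178 in the last exon, had 68 and 112 reads and became the most abundant model in replicate 2. XBP1-206, annotated as a retained intron and with 2173 bases, had 6 and 12 reads. Known XBP1 models stood at 80.1 and 56.9 CPM and genomic ones at 50.7 and 77.4 CPM, which left the sum nearly level.

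**Figure D3:**
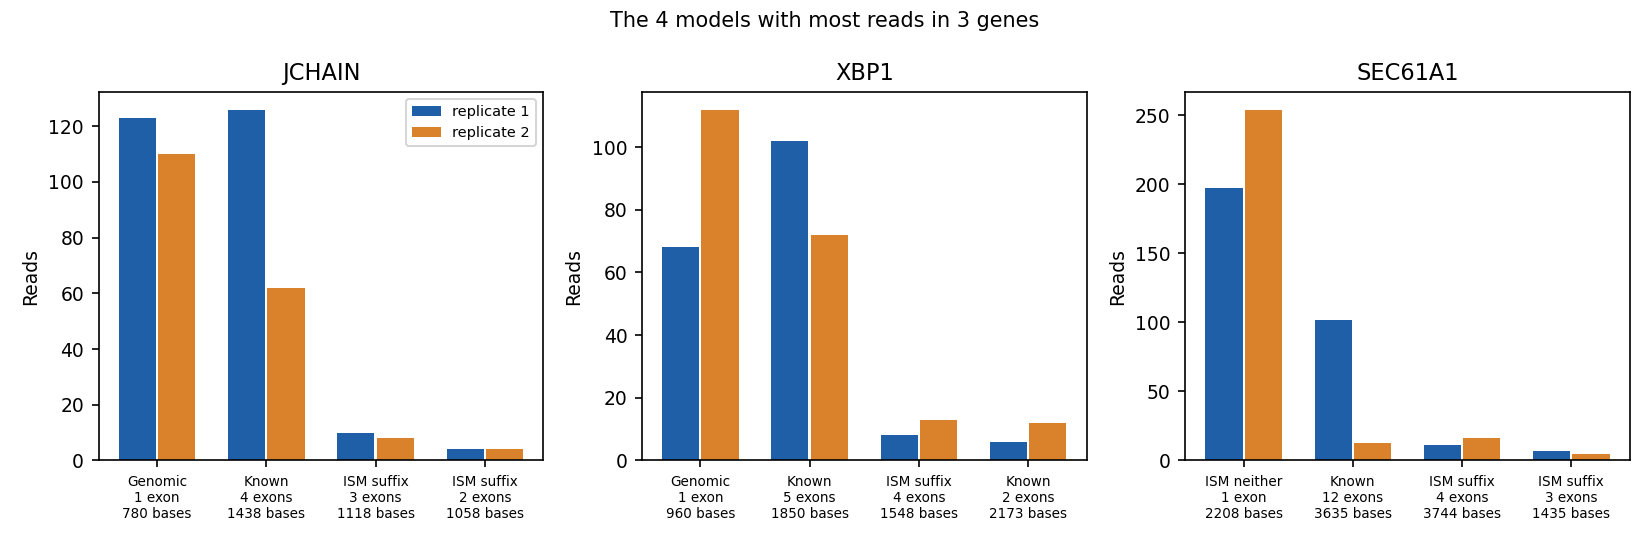
Reads of the 4 models with most reads in JCHAIN, XBP1 and SEC61A1, with bars for each library and the category, exon number and length of the model below. In each gene the known model with most reads is lower in replicate 2, falling from 102 to 13 reads in SEC61A1, while the single-exon model goes from 197 to 254 reads there and from 68 to 112 in XBP1.

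Genomic single-exon models also occurred in SPCS2 and SPCS1. In SPCS2 the genomic single-exon model ENCODEHT000484132, of 2773 bases, was the most abundant in both libraries, with 24 reads (29.3%) and 45 of 90 reads. It is longer than the last exon of SPCS2-201, of 2175 bases, and so extends beyond that exon. The same holds for ENCODEHT000410968 of MZB1 (1277 bases against 354, 17 and 31 reads) and ENCODEHT000259307 of SEC11C (1168 against 205, 3 and 6 reads). In SPCS1 the single-exon genomic model ENCODEHT000410509, of 2058 bases against 3460 in the last exon of SPCS1-206, had 16 reads (5.80%) and 48 reads (17.5%). SSR4 and SEC61B, with short last exons of 177 bases in SSR4-203 and 279 bases in SEC61B-201, had single-exon shares of only 0.167% and 1.28%, and of 1.73% and 4.16%. Of the 11 single-exon models with at least 5 reads in these genes, 3 had exactly the length of an annotated last exon, those of SEC61A1, SEC61B and SSR4. The table gives no coordinates, so the position of these models was not tested.

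Across the 9 genes with at least 20 reads in each library, the share of single-exon reads tended to be higher where the last exon of the main known model was longer. Spearman's correlation was 0.667 in replicate 1 and 0.767 in replicate 2, and between last exon length and known share it was -0.533 and -0.800. Known model length gave similar values with the single-exon share, 0.650 and 0.700. With the ISM share the values were low for both lengths, 0.267 and 0.283 for the last exon and 0.100 and 0.117 for the model. The longest last exon entered was that of SPCS1-206, 3460 bases, whose length need not be that of the strands. Without SPCS1, an alternative chosen after seeing the data, the 8 other genes gave 0.881 and 0.905 for last exon length with the single-exon share, and -0.881 and -0.952 with the known share. These are descriptions over 9 genes that share both libraries. Without genomic models the most abundant model was the same in both libraries in all 9 genes, and with them in 7, the exceptions being JCHAIN and XBP1.

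Within known models the coding form dominated. Among the reads of known models, JCHAIN-201 held 99.2% and 100%, SEC61B-201 99.7% and 99.7%, SPCS1-206 96.5% and 93.7%, XBP1-201 93.6% and 83.7%, and SSR4-203 93.9% and 85.9%. SEC11C-204 held 89.2% and 82.7%, and MZB1-201 87.6% and 78.7%. SPCS1-206 is annotated with 4254 bases but has the same splice junctions as SPCS1-201 (1082 bases) and SPCS1-205 (832 bases), so its reads cannot be ascribed to the long 3′ end.

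The use of the main known model was compared with Fisher's exact test over 1878 genes, of which 12.5% passed, 11% with a lower and 1.44% with a higher share in replicate 2. Of the 7 genes tested here 1 passed. SSR4-203 had 509 of 542 known reads in replicate 1 and 401 of 467 in the other library (Fisher's exact test, adjusted p of 0.000378). Most other known SSR4 reads lay in SSR4-210, a processed transcript with 24 and 43 reads, and SSR4-205, annotated as a retained intron, with 7 and 19 reads. SSR4-210 has 5 exons and SSR4-205 has 3, against 6 in SSR4-203, and the last exon of all of them begins at the same base. Whether shortened SSR4-203 strands were counted in these models was not tested, so the difference is not a measured change of splicing. MZB1 missed the threshold (adjusted p of 0.0649, Fisher's exact test), with 13 and 36 reads in the retained intron model MZB1-203 of 1887 bases. MZB1 also had 4 models annotated as targets of nonsense-mediated decay (MZB1-202, MZB1-204, MZB1-208 and MZB1-205), with 10, 9, 8 and 7 reads in the libraries together.

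Retained intron models held 14 of 267 known MZB1 reads in replicate 1 (5.24%, 3.15 to 8.61%) and 37 of 244 in replicate 2 (15.2%, 11.2 to 20.2%). In SEC11C they held 6.03% and 11.7%, mainly through SEC11C-206 with 11 and 20 reads. Minor known models of SEC11C were SEC11C-201 (3 and 7 reads), SEC11C-205 (7 and 3) and SEC11C-203 (3 and 3), and SPCS1 had SPCS1-204, a retained intron model, with 8 and 10. SEC61A1-207 had 2 and 3 reads, SPCS2-202 had 6 and 1, and SPCS2-207 had 2 and 3. Over the 10 genes together the share was 2.51% (1.91 to 3.31%) and 6.59% (5.46 to 7.94%). All annotated genes showed the same order, at 4.24% and 7.07%. MZB1-203 and SEC11C-206 have 3 exons each, against 4 in MZB1-201 and 6 in SEC11C-204, and XBP1-206 has 2 against 5 in XBP1-201. In each pair the last exon begins at the same base. Whether reads of shortened coding strands were counted in these retained intron models was not tested, so the shares are not levels of intron retention.

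Unannotated splicing had its largest share of reads in SPCS2. NIC and NNC models together took 1.55% plus 3.93% of the reads of the 10 genes in replicate 1 and 1.52% plus 2.63% in replicate 2. Over all annotated genes they took 4.13% plus 4.38% in replicate 1 and 2.90% plus 3.14% in replicate 2. The NNC shares of SPCS2 (14.6% and 4.44%), SPCS1 (5.80% and 6.55%), SEC11C (5.67% and 4.82%) and SSR4 (4.67% and 3.66%) were above those of all annotated genes. In SPCS2, the NIC model ENCODEHT000483997, with 5 exons and 1282 bases, had 14 reads in each library. It exceeded the best annotated model, SPCS2-201 of 2708 bases, which had 9 and 4 reads. The NNC model ENCODEHT000484001 of SPCS2 had 10 and 3 reads. In SPCS1 the NNC model ENCODEHT000410338, with 4 exons and 828 bases, had 13 and 15 reads. Smaller ones were found in SSR4 (ENCODEHT000497760, 9 and 5 reads), SEC11C (ENCODEHT000258406, 8 and 3) and SEC61B (ENCODEHT000583185, 6 and 2). JCHAIN, MZB1, XBP1 and SEC61A1 had no NIC or NNC model with more than 5 reads in the libraries together.

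Of the 234 models of the 10 genes, 96 had a read in both libraries (41.0%, 34.9 to 47.4%), against 29.9% of the models of all annotated genes. The 2 shares are not matched for level, as the median was 189 CPM in the 10 genes and 8.23 CPM over all annotated genes. Known models recurred most often, 29 of 38 (76.3%), and NNC models least, 15 of 73 (20.5%). A single read supported 120 of the 234 models. The recurring share was lowest in SEC61A1, with 10 of 39 models, and highest in MZB1, with 13 of 21.

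The partners of these genes were taken from lists of the same pathway. Together 76 of their 83 listed symbols could be tested, and 15 passed the exact binomial test, 3 higher and 12 lower in replicate 2, against 5.05% of all genes tested. The listed genes had a median level of 83.9 CPM, against 8.23 CPM over all annotated genes, and a test has more power at higher counts. With a minimum of 50 reads 17 of 73 passed, against 9.62% of all genes. The shares of all genes given below are those with the minimum of 10 reads.

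In the translocon, TRAP and signal peptidase, 1 of 9 partner genes tested passed, against 5.05% of all genes. The TRAP genes SSR2 and SSR3 had 310 CPM ± 9.54 and 226 CPM ± 7.39 (SD, n = 2), below SSR4 in both libraries. SEC61G, the gamma subunit of the channel, had 304 and 328 reads, which placed it at 0.751 and 0.802 of SEC61B. SEC61A2, the paralogue of SEC61A1, had 5 and 2 reads. SEC11A, the other catalytic subunit of signal peptidase, rose from 187 to 290 reads, a log2 ratio of 0.48 (interval 0.21 to 0.75, adjusted p of 0.0109, exact binomial test). SEC11C thus exceeded SEC11A by a ratio of 1.51 in replicate 1 and was below it, at 0.859, in replicate 2, so the order of these paralogues differed between the libraries.

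Of 8 genes for the signal recognition particle, which brings ribosomes to the channel, and for its receptor, 1 was higher and 1 lower, against 2.72% and 2.33% of all genes. SRP9 went from 141 to 289 reads (log2 ratio 0.88, adjusted p of 1.2e-07, exact binomial test) and its dimer partner SRP14 from 653 to 532 (log2 ratio -0.45, adjusted p of 1.03e-05). SRPRA, a receptor subunit, had 114 CPM ± 13.9 (SD, n = 2) and SRP54, a subunit of the particle, had 48.0 CPM ± 2.35 (SD, n = 2). Of 11 genes tested of the oligosaccharyltransferase, which attaches glycans to chains entering the ER, OSTC was higher (152 and 236 reads) and DAD1 lower (359 and 312 reads). OST4, DDOST and MAGT1 did not pass, with means of 316 CPM ± 2.62, 277 CPM ± 14.1 and 38.5 CPM ± 4.83 (SD, n = 2).

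Of the 19 ER folding genes 8 were lower in replicate 2 and none higher, against 2.33% lower over all genes tested. The list had a median log2 ratio of -0.46, against 0.01. CALR, the chaperone calreticulin, had 1730 and 1359 reads, a log2 ratio of -0.50 (interval -0.60 to -0.40, adjusted p of 3.01e-19, exact binomial test). HSPA5, which encodes BiP, had 802 and 570 reads (log2 ratio -0.64), and HSP90B1, the chaperone GRP94 with which MZB1 works, 592 and 475 reads and -0.47. PDIA3, a disulfide isomerase, had 610 and 484 reads (log2 ratio -0.48), and PPIB, a prolyl isomerase, 802 and 716 reads and -0.32. ERO1B, the lowest of the list, had 31 and 25 reads and did not pass. MZB1 had 0.517 and 0.655 reads per read of HSP90B1.

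No gene of the 12 tested among sensors and targets of the unfolded protein response passed the exact binomial test, and 1 had an unadjusted p under 0.05. ATF4 was the most abundant, with 207 and 241 reads, followed by HERPUD1 with 103 and 95 and DERL1 with 91 and 99, while DDIT3 had 5 and 4 reads. ERN1, which encodes the enzyme that cuts XBP1 mRNA, had 7 and 10 reads.

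Of the plasma cell list 2 of 9 genes tested were lower in replicate 2, against 2.33% of all genes. IRF4, a transcription factor needed for plasma cell formation, had 459 and 403 reads (log2 ratio -0.34, adjusted p of 0.0161, exact binomial test), and POU2AF1, a B cell coactivator, 329 and 275 reads (log2 ratio -0.41, adjusted p of 0.0151). CD27 had 309 and 298 reads, and TENT5C had 2 and 3. Surface markers of plasma cells were present, TNFRSF17 (BCMA) with 204 and 201 reads and SDC1 (CD138) with 50 and 52, while PRDM1 itself was at 4 and 3. Of the B cell identity genes that PRDM1 is known to oppose, none of 8 tested passed, and 1, CD22, had an unadjusted p under 0.05. MS4A1 (CD20) had 360 and 416 reads, CD22 had 201 and 292, IRF8 had 131 and 174, PAX5 had 54 and 70, and BCL6 had 0 and 2. The libraries thus held reads of JCHAIN, MZB1 and XBP1 beside those of B cell genes, and the name of the gene set is not a cell type.

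**Figure D4:**
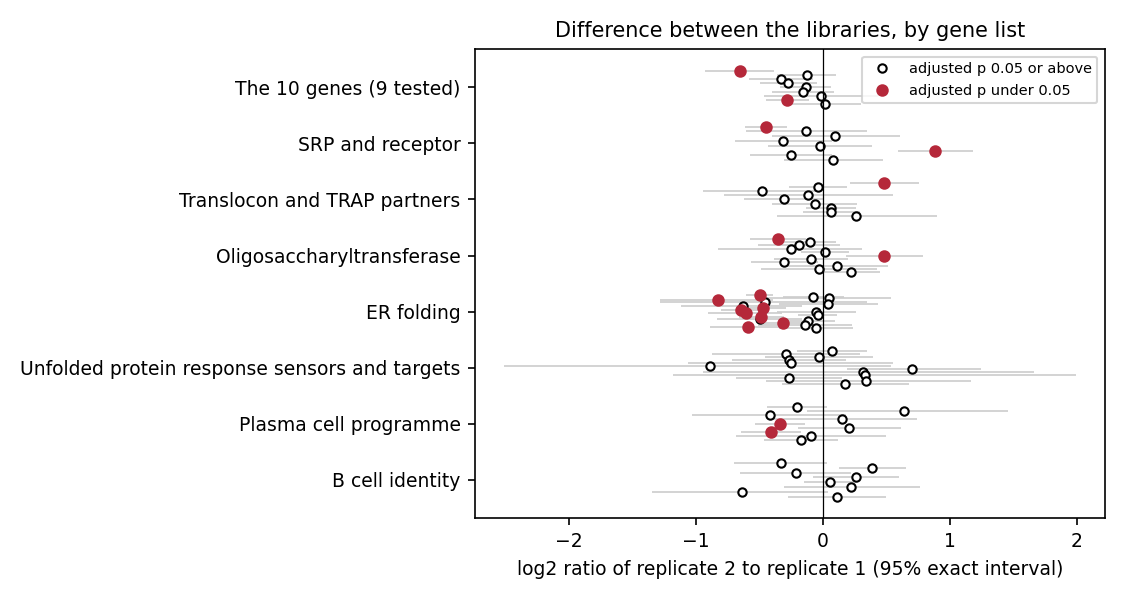
Log2 ratio of replicate 2 to replicate 1 for each tested gene of the 10 and of 7 pathway lists, with 95% exact intervals, filled where the adjusted p is under 0.05. JCHAIN (-0.65) and SSR4 (-0.28) are filled in the first row, and 8 of the 19 ER folding genes lie on the same side.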

How the data were processed

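Direct RNA reads of 2 GM12878 libraries were analysed. Raw counts of reads per transcript model come from 1 table that the authors deposited, named as TALON output (a program that assigns long reads to models). The deposited columns of exon number and model length hold other, non-measured properties of each model. The submitters' processing notes name minimap2 and hg38; versions, annotation release and read filters are not given in the sources used here. All 23533 known models matched GENCODE 29 by identifier, and positions come from that release (GRCh38). The number of unmapped sample columns was 0.

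Gene counts are sums over the models of an annotated gene. With 1 group, edgeR's quasi-likelihood test has no contrast, so libraries were compared with exact binomial and Fisher's exact tests (scipy 1.17.1), Benjamini-Hochberg adjusted over all genes tested, after tests on simulated data. Log2 ratios used 0.5 added reads. edgeR 4.0.16 (TMM) and DESeq2 1.42.0 gave alternative scalings. Intervals and the limit of 3 reads cover counting error only. One read was worth 0.735 and 0.662 CPM. The genes, lists and named items (all 10 genes; in each list the 3 highest, the lowest and up to 4 genes past the threshold; main, known and NIC or NNC models) were chosen with earlier results of these data known. ERN1, PAX5, SDC1, TNFRSF17 and the promoter motifs were added outside this rule.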

Additional observations from a re-analysis of the deposited data

How the results depend on the processing

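No paired analysis was possible because only 1 group exists. The summed level of the 10 genes, 1889 CPM, was 2398 CPM in known models only, and with 1 library left out it lay between 1737 and 2041 CPM. Their known share, 64.6%, was 73.0% without genomic models and between 58.96% and 70.2% with 1 library left out. The number of genes that differed between the libraries was 1 in place of 2 with DESeq2 size factors and with genomic models left out, and the number with a lower known share was 3 in place of 7 without genomic models (26.0% and 27.1% of all genes). When ISM, NIC and NNC models were counted too, use of the main model differed in 4 of 9 genes in place of 1 of 7 (29.7% and 12.5% of all genes). JCHAIN changed sign from 0.787 to -5.08 points, but passed in neither case (adjusted p of 0.517 for the latter, Fisher's exact test). Recurrence of models between the libraries, 41.0%, was 61.6% among those with at least 2 reads. Spearman's correlation between ISM share and length, 0.108, was 0.158 with the longest known model and between 0.100 and 0.117 with 1 library left out. Ratios near 0 changed sign: XBP1 to -0.0152 (TMM), -0.21 (known models), -0.35 (no genomic models) and -0.29 (2 or more exons), SPCS2 to 0.00678 (DESeq2), and MZB1 to 0.00426 and SEC61B to 0.0209 (known models). None of these passed. SEC61A1 passed in known models (-2.53) and in models of 2 or more exons (-1.22). In known models alone, all genes had a median of -0.26, against which the JCHAIN and SEC61A1 values there are read. The pathway lists gave 14 calls of 80 genes with no read minimum, where 2.78% of all genes passed, to 21 of 60 in known models, where 18.8% did. The cause of each change was not tested. Depth limits PRDM1 and SPCS2 most.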

Other observations

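Several of the 10 genes overlap a gene on the opposite strand, and these were read at modest levels. IDH3G, which shares 1008 bases with SSR4, had 123 and 128 reads. RUVBL1 and MGLL, which share 6906 and 550 bases with SEC61A1, had 124 and 108 and 186 and 115 reads. GLT8D1 and NEK4, which share 1078 and 2698 bases with SPCS1, had 58 and 44 and 2 and 12 reads, and ATG5, which spans all 23620 bases of PRDM1, had 46 and 41. ENAM, across the span of JCHAIN, had no read listed. Markers of other lineages were near 0. Of 5 T cell genes, CD3E (5 and 16 reads) and CD2 (3 and 10 reads) had reads, and the list summed to 5.88 and 17.2 CPM. The monocyte list summed to 2.94 and 5.29 CPM, the fibroblast list to 1.47 and 1.99 CPM, and the erythroid list to 0.735 and 0 CPM.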
